A study of Mus musculus with 2 samples.

Results

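The mouse gene C3 lies on chromosome 17 of GRCm38 from 57203973 to 57228136, and the clusters described here are the 244 that surround it. A cluster is the array's unit for 1 gene or transcript, read by several short probes. The members were picked by a rule of position that was proposed with earlier results of these data known. The rule takes clusters of the array's main category on chromosome 17 with a start between 46500000 and 70000000. This is a span of 23.5 Mb, and the C3 cluster itself is left out. The members are 244 of the 33793 main clusters and of the 1498 main clusters of chromosome 17. Of the 244, 232 carry a gene symbol and 12 do not. RefSeq (GRCm38.p6) matched 220 of them by gene ID, symbol or synonym, and all 220 overlapped their RefSeq gene. The matched members comprise 171 protein-coding genes, 24 long noncoding RNAs, 11 pseudogenes and 2 transcribed pseudogenes, 6 small nuclear RNAs, 4 small nucleolar RNAs, 1 ribosomal RNA and 1 microRNA gene.

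The series compared colon tissue of untreated 16-week-old wild-type (WT) mice, labelled FVB, with that of untreated C3 knockout (C3 KO) mice of the same age on the FVB background, both obtained by mating mice heterozygous for C3. Total RNA of each genotype was hybridized to 1 Mouse Gene 2.0 ST array, so there are 2 arrays in all, and whether a sample holds the RNA of 1 mouse or of several is not given in the sources used here. As tissue the labels name the distal colon, while their extraction protocol names the mid colon. A single array per genotype leaves the spread between mice unmeasured, so no test was possible. A level is the normalized log2 value that the authors deposited, a difference is C3 KO minus WT, and a cluster is called higher or lower where the difference reaches 1.5-fold, or 0.58 on the log2 scale.

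C3 is the protein on which the activation routes of complement converge, and its cleavage gives C3a, an inflammatory peptide, and C3b, which coats microbes. Genes that lie close together on a chromosome are inherited together. Where a knockout allele comes from another strain, the DNA next to it can stay with the allele through many generations of crossing and carry variants of that strain, known as passenger or flanking genes, and probes designed on the reference genome can bind such variants differently. How the C3 allele was made, from which strain it comes and which part of C3 is deleted are not given in the sources used here. The comparison therefore asks whether the clusters near C3 differed between the arrays more than clusters elsewhere.

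To show the region by its letters, the RefSeq promoter windows of 4 genes follow, 5′ to 3′ on the strand of the gene, from 250 bases before to 50 bases after the annotated start on GRCm38.p6. They are C3, its nearest neighbour upstream, Gpr108, and the protein-coding members with the largest lower and the largest higher difference, Ebi3 and Rftn1. The windows span chr17:57228087-57228386 for C3 and chr17:57247640-57247939 for Gpr108, both on the minus strand, chr17:55952373-55952672 for Ebi3 on the plus strand, and chr17:50190448-50190747 for Rftn1 on the minus strand. Capitals mark the TATA box letters TATAAA, the letters CCAAT and the GC box letters GGGCGG, each searched on both strands.
C3: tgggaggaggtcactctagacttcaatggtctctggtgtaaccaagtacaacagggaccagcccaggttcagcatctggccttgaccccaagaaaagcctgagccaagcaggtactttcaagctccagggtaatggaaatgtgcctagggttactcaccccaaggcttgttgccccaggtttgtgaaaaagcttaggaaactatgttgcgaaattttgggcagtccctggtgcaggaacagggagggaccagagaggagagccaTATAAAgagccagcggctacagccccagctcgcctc
Gpr108: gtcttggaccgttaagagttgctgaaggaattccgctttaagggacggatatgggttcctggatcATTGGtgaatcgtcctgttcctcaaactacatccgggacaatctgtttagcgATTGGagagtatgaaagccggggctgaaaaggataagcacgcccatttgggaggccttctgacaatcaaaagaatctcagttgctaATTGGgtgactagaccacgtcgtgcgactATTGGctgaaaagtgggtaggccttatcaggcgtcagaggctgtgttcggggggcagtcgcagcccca
Ebi3: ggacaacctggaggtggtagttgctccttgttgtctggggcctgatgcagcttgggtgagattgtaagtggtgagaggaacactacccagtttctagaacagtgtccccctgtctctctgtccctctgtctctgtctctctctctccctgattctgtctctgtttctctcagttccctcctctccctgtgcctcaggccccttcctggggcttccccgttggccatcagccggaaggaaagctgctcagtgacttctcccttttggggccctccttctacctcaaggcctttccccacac
Rftn1: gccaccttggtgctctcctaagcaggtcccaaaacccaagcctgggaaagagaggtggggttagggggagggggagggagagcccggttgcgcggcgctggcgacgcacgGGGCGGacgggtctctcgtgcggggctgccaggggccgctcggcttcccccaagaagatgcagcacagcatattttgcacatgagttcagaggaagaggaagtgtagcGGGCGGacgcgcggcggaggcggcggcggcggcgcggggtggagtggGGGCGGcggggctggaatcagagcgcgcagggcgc
The C3 window held 1 TATAAA, the Gpr108 window 4 CCAAT on the opposite strand, the Rftn1 window 3 GGGCGG, and the Ebi3 window none of these letters. The C3 TATAAA begins 14 bases after the annotated start and not before it, and the last GGGCGG of Rftn1 begins 15 bases after its start. RefSeq lists 2 windows for Gpr108, and the first is shown. Of the 244 members, 169 matched a promoter. GGGCGG was in 48.5% of these 169 windows, against 35.9% of the 27025 windows of all genes. Members with a mean level of at least 6 held it in 67.9% of 81 windows and members below that level in 30.7% of 88. The windows of all genes were not limited to genes on the array or matched to the members by level. CCAAT was in 43.2% of the members' windows against 37.9% of all, and TATAAA in 10.7% against 14.2%. A match is a run of letters and not a known binding site.

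The members include 1 microRNA gene, Mir7b, 0.961 Mb from C3. Its mature forms in RefSeq are at chr17:56243017-56243040 and chr17:56243055-56243076 on the plus strand, shown with the seed, bases 2 to 8, in capitals.
mmu-miR-7b-5p: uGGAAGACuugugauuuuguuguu
mmu-miR-7b-3p: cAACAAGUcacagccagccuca
The cluster named Mir7b reads the gene and not 1 of these forms.

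The C3 cluster, with 31 probes, read 8.15 on the WT array and 6.80 on the C3 KO array, a difference of -1.35 or 2.54-fold. Its C3 KO level lies above the background described next. None of the 244 members differed by as much in either direction. Over the whole array, 97 of 33793 main clusters were at least as much lower, and 21 of the 3923 clusters within 0.5 of the mean level of C3. The 23 background probe sets, which match no mouse transcript, had a median of 4.20 in WT and 3.99 in C3 KO. Main clusters had medians of 5.51 and 5.46.

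The 2 arrays also differed across the genome. Colon epithelium markers were high in both (11 genes, 8.61 to 13.2 in WT and 8.56 to 12.7 in C3 KO, 1 lower), as were 8 smooth muscle markers, none called. All 16 pancreatic acinar genes were lower in C3 KO, with a median of 12.2 in WT against 4.95 in C3 KO, and 4 of 10 stomach mucosa genes were lower. Xist read 10.4 (WT) and 3.81 (C3 KO), and 4 Y-linked genes were higher in C3 KO (Uty 3.78 in WT and 8.40 in C3 KO), so that sex and genotype cannot be told apart. Of 9 B cell markers 4 were higher, of 8 T cell markers 1 was lower, and none of 10 macrophage or of 7 adipocyte markers was called. The tissue is a mixture, and fewer cells of a type and less RNA per cell cannot be told apart.

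Along the segment, 16 of the 244 clusters (6.56%) were called, 5 higher and 11 lower. Over all main clusters, 7.48% were called, 3.66% higher and 3.82% lower, so the segment's share is near that background. The reference, 704 main clusters of chromosome 17 outside 30 to 75 Mb, had 58 called (8.24%), 37 higher and 21 lower. The median difference was -0.03 in the segment and 0 in the reference, and the median size of the difference was 0.18 and 0.16, with 0.18 over all main clusters. Autosomes ranged from 5.40% called (chromosome 11) to 9.32% (chromosome 6). At 2-fold, 1 member was called, lower, against 1.35% of all main clusters (0.669% higher and 0.678% lower).

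**Figure D1:**
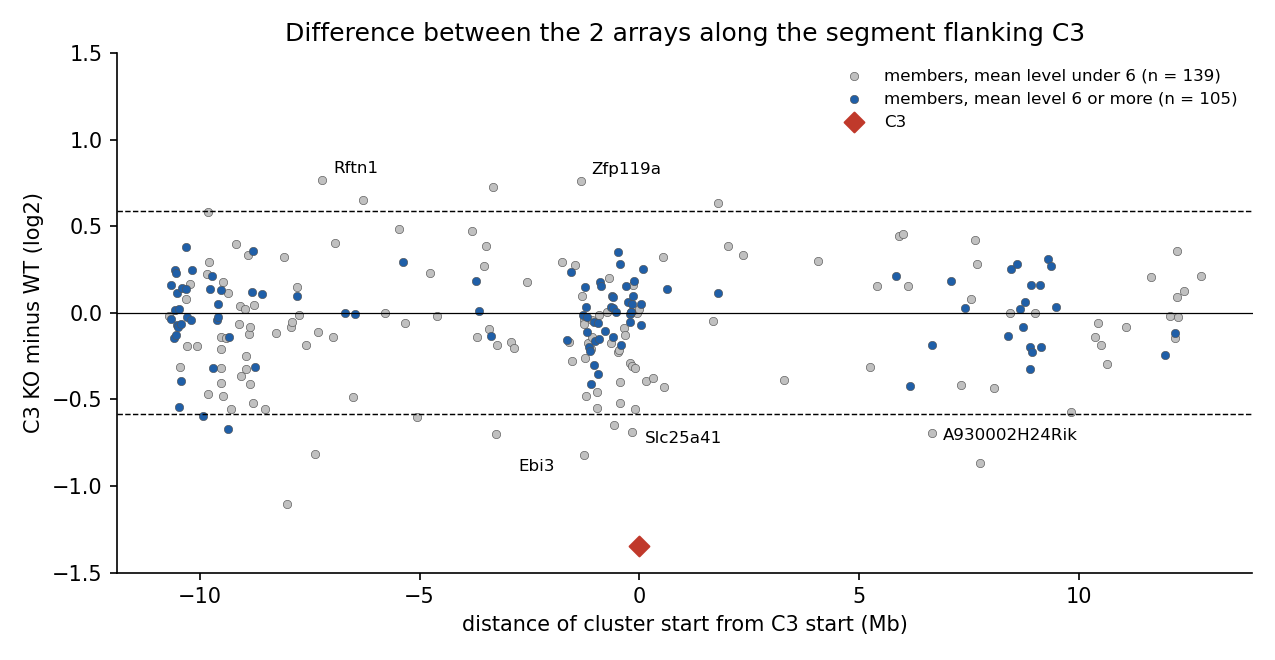
C3 KO minus WT difference (log2) of each of the 244 members and of C3, by distance of the cluster start from the C3 start (Mb), with dashed lines at 1.5-fold. C3, at -1.35, lies below every member, and the 16 members past the lines are spread over both sides with no gathering next to C3.

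By distance, the called share was lowest within 1 Mb of C3 and beyond 10 Mb, the ranges where the members were also brightest. The median mean level was 6.38 within 1 Mb, 5.88 from 1 to 2 Mb and 4.74 from 2 to 5 Mb. From 5 to 10 Mb it was 5.53 and beyond 10 Mb 6.24. The counts are small, and the part of level in these shares was not tested. Within 1 Mb of C3, 2 of 53 members were called (3.77%), both lower. From 1 to 2 Mb it was 3 of 31 (9.68%), 2 higher and 1 lower, and from 2 to 5 Mb 2 of 20, 1 in each direction. From 5 to 10 Mb it was 9 of 99 (9.09%), 2 higher and 7 lower, and beyond 10 Mb none of 41. The median size of the difference was 0.16 within 1 Mb, 0.17 from 1 to 2 Mb, 0.22 from 2 to 5 Mb, 0.21 from 5 to 10 Mb and 0.14 beyond. Over the 244 members the size of the difference had a Spearman correlation of -0.01 with distance. Over the 105 members with a mean level of at least 6 it was 0.16, larger differences lying farther away. All points come from the same 2 arrays, and neighbouring clusters can overlap. The members are unevenly spread, with 45 at lower coordinates and 8 at higher coordinates within 1 Mb.

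Most called members had a low level. Of the 16, 14 had a mean level under 6, as had 139 of all 244 members. Below both background medians lay 6 of the 16 and 29 of the 244, and 8 of the 16 and 38 of the 244 had under 16 probes. Over all main clusters, 16.3% of those with under 16 probes were called. Protein-coding genes were 5 of the 16 and 171 of the 244. Of the members under level 4, 22.6% of 31 were called, against 13.0% of all main clusters at that level. From 4 to 6 the shares were 6.48% of 108 and 8.40%, from 6 to 8 1.35% of 74 and 4.02%, and at 8 or more 3.23% of 31 and 2.95%. The size of the difference had a Spearman correlation of -0.31 with the mean level over the 244 members. Of the 105 members at 6 or more, 2 were called (1.90%), against 5.47% of 311 in the reference and 3.68% of all.

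**Figure D2:**
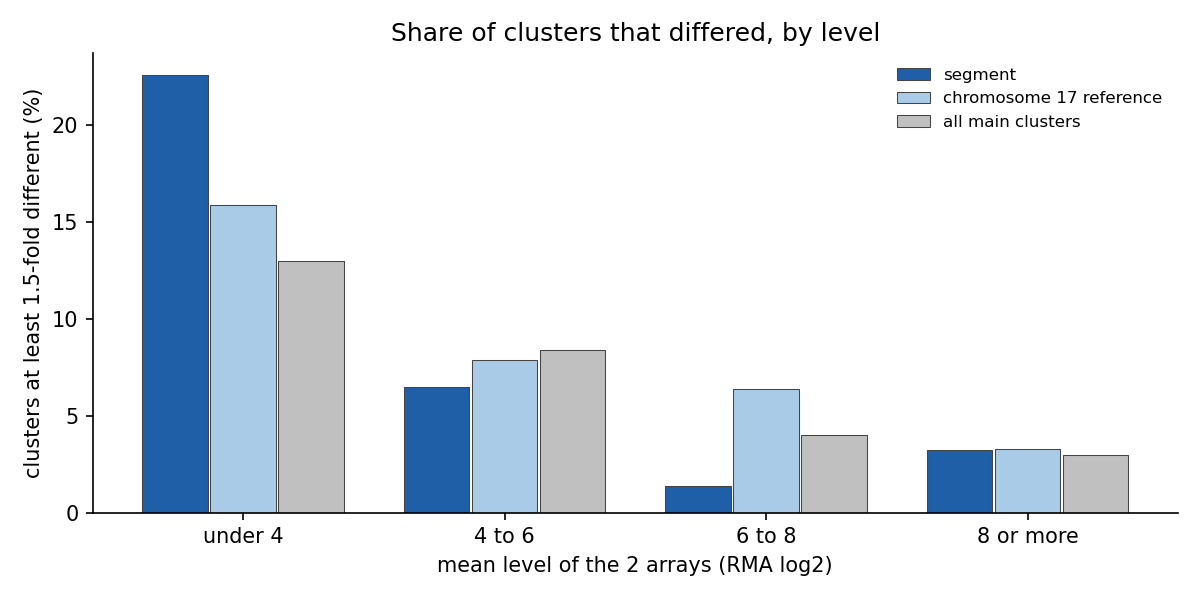
Percentage of clusters at least 1.5-fold different between C3 KO and WT, by mean level of the 2 arrays (RMA log2), for the segment (244), the chromosome 17 reference (704) and all main clusters (33793). The share falls from 22.6% of the members under level 4 to 1.35% from 6 to 8, and the segment is above the other sets only under level 4 and, by a small margin against all main clusters, at 8 or more.

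By kind of gene, 5 of 171 protein-coding members were called (2.92%), against 8.54% of 480 in the reference and 5.66% of 21306 over the array. None of the 91 protein-coding members at a mean level of at least 6 was called, against 5.93% of 253 in the reference and 2.85% of 10803 over the array. Of the 49 members of other RefSeq kinds 8 were called (16.3%), against 10.7% of 7410 over the array, and of the 24 with no match 3 (12.5%), against 10.4% of 5077. On the plus strand 7 of 109 members were called (6.42%) and on the minus strand 9 of 135 (6.67%), against 7.47% and 7.50% over the array.

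**Figure D3:**
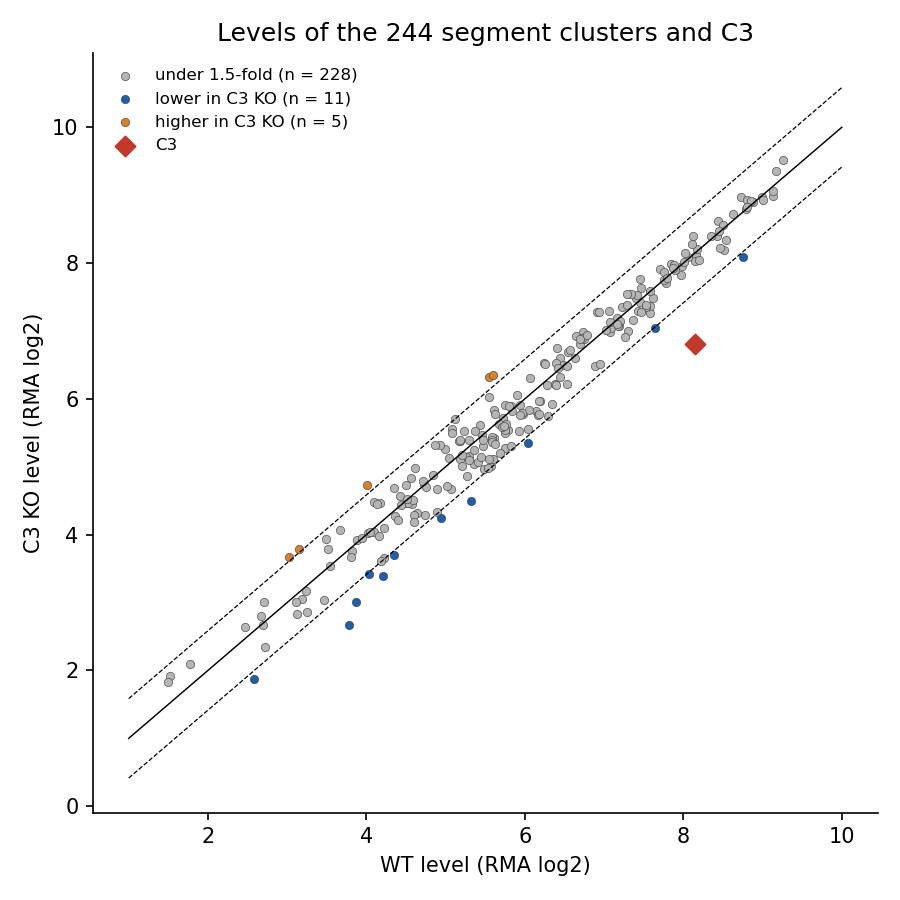
Level in C3 KO against level in WT (RMA log2) for the 244 members and C3, with the line of equal levels and dashed lines at 1.5-fold. The members follow the line (Pearson correlation 0.984 across the 244 clusters), the 16 called ones lie mostly at low levels, and C3 stands apart at 8.15 and 6.80.

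Among the 5 called protein-coding members, Ebi3 had the largest lower difference. It encodes a subunit of the cytokines interleukin-27 and interleukin-35, starts 1.25 Mb from C3, and read 5.32 in WT against 4.49 in C3 KO, 1.77-fold lower. Rftn1, which encodes raftlin, a protein of membrane lipid rafts found in B cells, starts 7.21 Mb away, and had 5.55 in WT and 6.32 in C3 KO, 1.70-fold higher. The B cell markers ranged from 4.37 to 5.92 in WT and from 4.62 to 6.90 in C3 KO, with 4 of 9 higher, and their part in the Rftn1 difference was not tested.

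Zfp119a, which encodes a zinc finger protein, starts 1.34 Mb from C3 and had 5.59 in WT and 6.35 in C3 KO, from 12 probes. Neighbouring genes of the same family stayed within 1.5-fold, with 5.79 and 5.89 for Zfp959 and 4.51 and 4.47 for Zfp119b. Slc25a41, a mitochondrial carrier gene 0.171 Mb from C3, had 4.94 in WT and 4.25 in C3 KO. Its adjacent relative Slc25a23, a calcium-dependent mitochondrial carrier gene, had 8.51 and 8.56. Of each of these families, 1 neighbour was called and the others were not. Catsperd, which encodes a subunit of the sperm calcium channel CatSper, had 4.35 in WT and 3.70 in C3 KO, and the C3 KO value lies below the background median of that array.

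The other called members were RNA genes, pseudogenes and clone names. A930002H24Rik fell from 6.04 in WT to 5.35 in C3 KO and overlaps Fer, a tyrosine kinase gene on the opposite strand that had 7.47 and 7.28. The only called members whose mean level reached 6 were the ribosomal RNA gene n-R5s28 (8.76 in WT and 8.09 in C3 KO) and Gm26216 (7.65 and 7.05). Both have 8 probes that the array's annotation marks as matching more than 1 place (cross-hybridization type 3). Gm25344, Gm16555, Mark1-ps1 and Gm19585 were lower by 0.60 to 0.87, and Mrps36-ps1, Gm25177 and Nudt12os higher by 0.63 to 0.73. The largest difference of any member belonged to an unnamed cluster of 4 probes, of the same annotation type, with 3.78 in WT and 2.68 in C3 KO, below both background medians. Just inside the threshold was Guca1a (5.12 and 5.70, a difference of 0.58), which encodes an activator of retinal guanylate cyclase.

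At the borders of the segment, the last cluster before it, Dnph1, differed by 0.06, the first inside, Cul9, by -0.02, the last inside, Dlgap1, by 0.21, and the first after it, 5031415H12Rik, by -0.45.

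The genes closest to C3 showed no difference of the size of C3's. Toward lower coordinates lie 3 ligands of the tumour necrosis factor (TNF) family, which act on lymphocyte receptors. Tnfsf14, the ligand known as LIGHT, begins 0.014 Mb from C3 and had 4.51 in WT and 4.53 in C3 KO. Cd70, the ligand of CD27, had 3.54 in both arrays, below both background medians. Tnfsf9, the ligand of 4-1BB, had 4.64 and 4.32. All 3 lie near or below the background medians of 4.20 and 3.99.

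Toward higher coordinates lie Gpr108, Trip10, Vav1 and Adgre1. Gpr108, which encodes a membrane protein with several transmembrane segments, starts 0.031 Mb away and had 9.00 in WT and 8.93 in C3 KO. Trip10, which encodes an adaptor of the GTPase Cdc42, had 8.34 and 8.39. These 2 genes, well above background and adjacent to C3, differed by -0.07 and 0.05. Vav1, a signalling gene of blood cells, had 6.25 and 6.51, and Adgre1, which encodes the macrophage antigen F4/80, had 5.92 and 5.52. The macrophage markers had a median of 6.72 in WT and 6.99 in C3 KO.

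**Figure D4:**
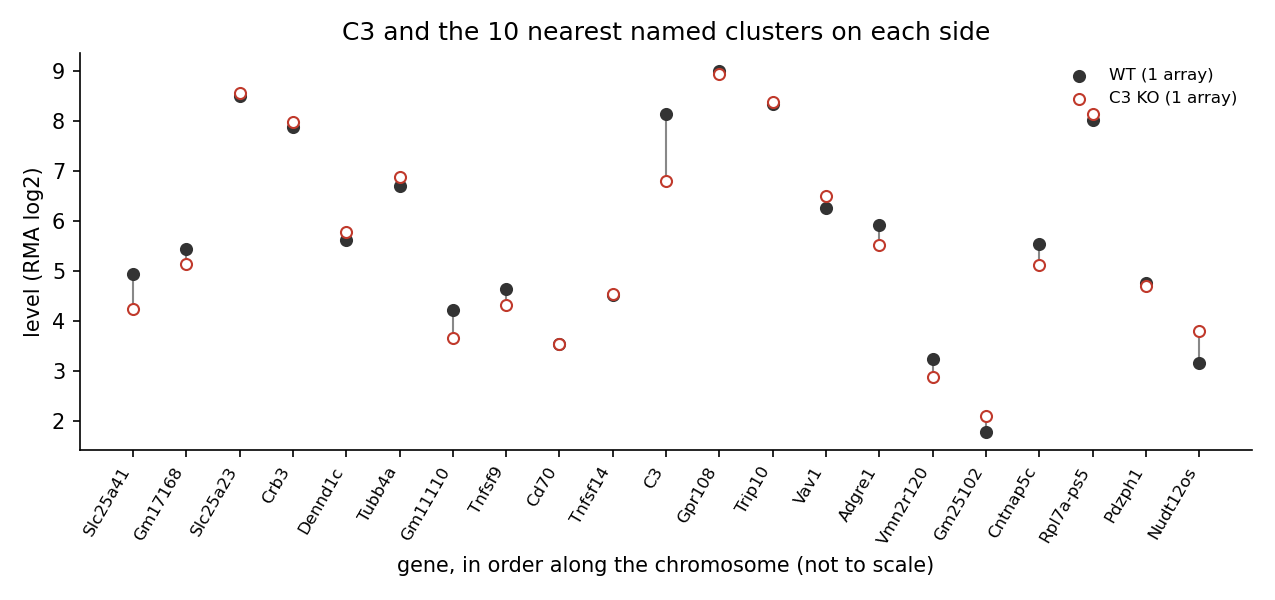
Levels (RMA log2) of C3 and of the 10 nearest named clusters on each side in WT (filled) and C3 KO (open), 1 array each, in chromosomal order. C3 has the longest line, 8.15 to 6.80, while Slc25a23, Crb3, Gpr108 and Trip10 overlap almost fully.

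These 20 named members are the nearest on each side, taken in equal number. They start from -0.17 to 1.79 Mb from the C3 start, so that closer members at lower coordinates are left out. Of the 20, 2 were called (Slc25a41 and Nudt12os), against 7.48% of all main clusters, a count too small to set them apart. The 20 differences ran from -0.69 to 0.63, with a median of 0.01. Nudt12os, 1.79 Mb from C3, had 3.15 in WT and 3.79 in C3 KO, below background in both arrays. Farther along the lower side, Crb3, an apical polarity gene of epithelium, had 7.88 in WT and 7.97 in C3 KO, Tubb4a, a beta-tubulin gene, had 6.70 and 6.88, and Dennd1c had 5.62 and 5.78. The long noncoding RNA Gm11110, which overlaps Tnfsf9 on the opposite strand, had 4.22 and 3.66. On the other side Cntnap5c, a gene of the neurexin family, had 5.55 and 5.12, the ribosomal pseudogene Rpl7a-ps5 8.01 and 8.15, and Pdzph1 4.75 and 4.70. The vomeronasal receptor gene Vmn2r120 (3.24 and 2.87) and Gm25102 (1.78 and 2.10) lay below background in both arrays.

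The members were grouped by role and are set against the 7.48% called over all main clusters. In groups this small, 0 or 1 call does not set a group apart from that share. The TNF ligands (3 members), the TREM receptors of myeloid cells (6), the leukocyte receptor and signalling genes (11), the perilipin and lipid genes (4), the transcription and chromatin genes (21), the cell cycle and ubiquitin genes (12), the traffic and cytoskeleton genes (13), the adhesion and guidance genes (13), a mixed group of enzymes and enzyme regulators (6) and the vomeronasal receptors (2) had no member called. In the mitochondrial group of 9 genes 1 was lower, among 3 zinc finger genes 1 was higher, among 36 predicted genes 1 was higher and 4 lower, and among 22 Riken clone genes 1 was lower. The groups rest on gene lists and symbol patterns and do not hold every member of a kind. Of mitochondrial genes, Lonp1 was listed with transcription and chromatin, and 2410015M20Rik (Micos13 in RefSeq) with the Riken clones. The 82 members in no group had 3 higher and 5 lower.

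TREM receptors, which set the threshold of myeloid activation, differed by -0.41 to 0.34. Treml1, the platelet member, had 6.17 in WT and 5.76 in C3 KO, and Treml4 had 5.79 and 5.54. Trem2, a lipid sensor of macrophages, had 5.70 and 5.61, and Trem1, an amplifier of inflammation, had 4.73 and 4.75. The group thus held values on both sides of 0. Among the leukocyte genes, Themis3, a gut-expressed relative of a T cell gene, was the brightest (9.25 and 9.52), and Ticam1, the adaptor of Toll-like receptor 3, had 7.20 and 7.15.

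Nfya, a subunit of the factor that binds CCAAT, had 8.80 in WT and 8.92 in C3 KO, and Khsrp, an RNA-binding splicing regulator 0.183 Mb from C3, had 8.79 in both. Srf, a regulator of muscle and growth-response genes, had 8.16 and 8.12. The widest difference of the transcription and chromatin group was that of Satb1, a chromatin organizer of T cells, with 5.55 and 6.03, beside T cell markers of which 1 of 8 was lower.

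Pja2, a ubiquitin ligase gene, had 9.17 in WT and 9.35 in C3 KO, and Ppp4r1, a phosphatase subunit gene, 8.12 and 8.40. Rab5a, the GTPase of early endosomes, had 8.44 and 8.62. Twsg1, a modulator of bone morphogenetic proteins, had 9.14 and 9.06, and Man2a1, a Golgi mannosidase, had 8.80 and 8.83. None of these 5 bright genes reached 1.5-fold. Mocs1, of molybdenum cofactor synthesis, had 8.62 and 8.72, and Oard1, which removes ADP-ribose from proteins, had 6.40 and 6.75.

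The mixed group holds 6 enzymes and enzyme regulators, none of them called. Pgc, which encodes the stomach protease precursor pepsinogen C, had 5.68 in WT and 5.20 in C3 KO. Apobec2, a muscle gene of the deaminase family, had 5.49 and 4.97, and Guca1b, a retinal cyclase activator like Guca1a, had 5.75 and 5.28. Guca1a, given above, had 5.12 and 5.70, the widest difference of the group and the only one besides Nudt12 above 0. Of the stomach markers 4 of 10 were lower, and their part in the Pgc difference was not tested. Dpp9, a cytosolic dipeptidyl peptidase gene, had 7.52 and 7.36, and Nudt12, an NADH hydrolase gene, had 7.41 and 7.53.

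Perilipins coat lipid droplets. Plin3 had 8.20 in WT and 8.05 in C3 KO, Plin4 had 6.34 and 5.93, and Plin5 had 5.75 and 5.55. Acsbg2, which activates fatty acids, had 4.59 and 4.50. All 4 listed in the group were below 0, from -0.41 to -0.09, and none was called. Lipid genes outside the list went both ways. Acer1, a ceramidase gene, had 8.85 in WT and 8.92 in C3 KO, and 1700061G19Rik (Acsbg3 in RefSeq) had 4.22 and 4.09. The adipocyte markers, 7 genes with none called, had a median of 5.99 in WT and 5.79 in C3 KO.

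The perilipin genes lie in the longest stretch of neighbouring members with a difference of 1 sign. From Mpnd to Arrdc5, chr17:56005711-56300286, all 18 consecutive clusters were lower in C3 KO, 16 of them protein coding. They begin 1.20 to 0.910 Mb from C3 at lower coordinates, and span 0.295 Mb. Their differences ran from -0.55 to -0.01 with a median of -0.17, and none was called. The stretch was picked because of its values, so it carries no test. In the deposited values it was the longest run of lower clusters on any chromosome, the next being 16 on chromosome 7. Runs of higher clusters reached 35 on chromosome 2. With each array centred on its median 15 of the 18 were lower, and with the loess centring 17 of 18. Mpnd (-0.03), Sema6b (-0.04) and Arrdc5 (-0.01) lay closer to 0 than the 0.05 shift of the median centring, which broke the run. Runs on other chromosomes were not recomputed with either centring, so the rank holds for the deposited values only.

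**Figure D5:**
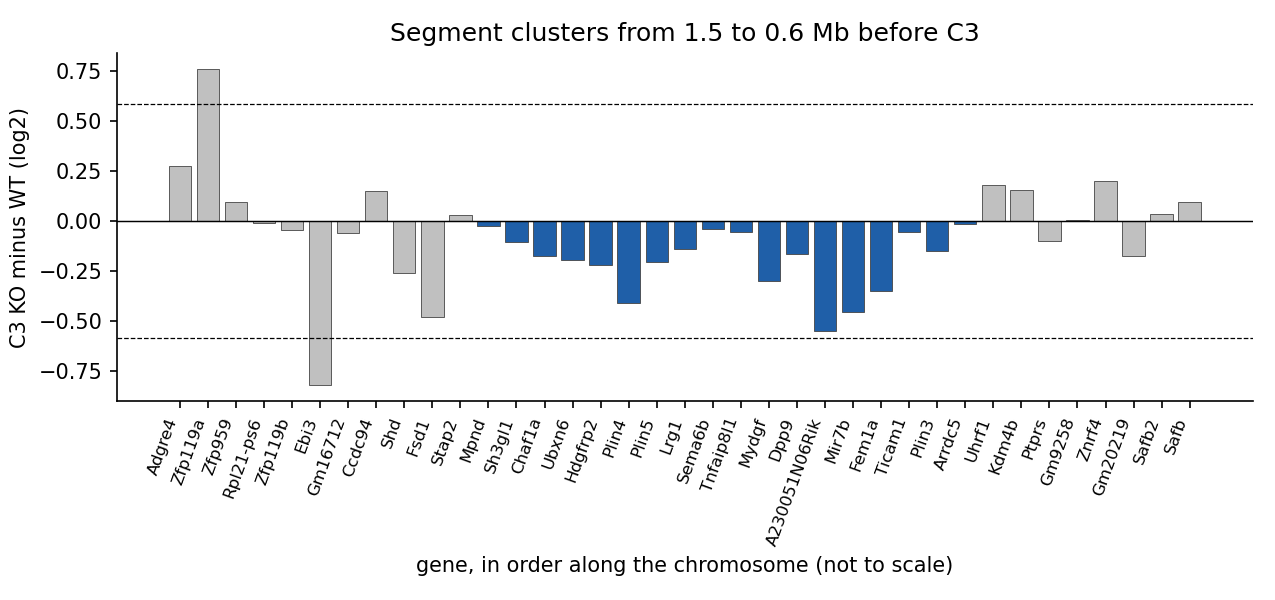
C3 KO minus WT difference (log2) of the members from 1.5 to 0.6 Mb before C3 in chromosomal order (blue, the 18 members from Mpnd to Arrdc5; grey, their neighbours), with dashed lines at 1.5-fold. All 18 blue bars lie below 0, the deepest at -0.55 for A230051N06Rik, and none reaches the line.

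Within the stretch the deepest differences were those of A230051N06Rik, the long noncoding RNA beside Mir7b, with 5.53 in WT and 4.98 in C3 KO, and of Mir7b, whose sequences are given above, with 4.74 and 4.29. Plin4 followed. Fem1a, a substrate receptor of ubiquitin ligases, had 7.26 and 6.91, and Mydgf, which encodes a secreted growth factor of myeloid cells, had 7.30 and 7.00. Lrg1, a secreted glycoprotein gene induced in inflammation, had 5.77 and 5.62, and Chaf1a, a subunit of chromatin assembly factor 1, had 5.96 and 5.79. Directly after it, Uhrf1, which maintains DNA methylation, had 6.72 and 6.89, and Kdm4b, a histone demethylase gene, had 6.56 and 6.72, so that the sign turned.

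Over the 243 pairs of consecutive members of the whole segment, this stretch included, the difference of a cluster had a Spearman correlation of 0.04 with that of the next, and over 703 pairs of the reference 0.08. Clusters that overlap on opposite strands had the same sign in 25 of 34 pairs and those on the same strand in 4 of 7. No such share over the array was computed for comparison. Some members occur in more than 1 pair, and some pairs lie in the stretch that was picked because of its values. Whether overlapping clusters share signal was not tested. Examples were Ebi3 and Gm16712 (-0.82 and -0.06), Gm11110 and Tnfsf9 (-0.56 and -0.32), and A930002H24Rik and Fer (-0.69 and -0.19), while Cntnap5c and Rpl7a-ps5 had opposite signs (-0.43 and 0.14).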

How the data were processed

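Total RNA from colon was labelled as cDNA and hybridized to Mouse Gene 2.0 ST arrays. The authors summarized probe signals per gene with Affymetrix Power Tools (RMA) and deposited log2 values for 41345 probe sets, 2 columns in all. The values of the series table were identical. Arrays have no read depth, and their number limits the precision. Tables that the authors deposited with folds and enrichment p-values were not used. Coordinates follow the deposited annotation (GRCm38), and clusters were matched to RefSeq GRCm38.p6 by gene ID, then symbol, then synonym. Distance is cluster start minus C3 start. Named genes are the 10 nearest to C3 on each side, the 10 most different each way among those of mean level 5 or more, role-group members past 1.5-fold at that level, and the 2 brightest of each group. A gene that this rule names is not reported here. Others are named as members of a group or were chosen after their values were seen. Members, role groups and lists were chosen with earlier results of these data known. The counting of calls was checked on simulated differences with planted shifts far larger than the noise. That checks the code only and not the calls of these data. Software: statsmodels 0.14.6, scipy 1.17.1, pandas 2.3.3, numpy 2.4.6, matplotlib 3.10.9 and Python 3.11.15.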

Additional observations from a re-analysis of the deposited data

How the results depend on the processing

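The 16 called members remained close in number (15 to 16) when each array was centred on its median, with loess centring, with the series table and with 1 value per gene symbol. Among clusters of cross-hybridization type 1, 12 of 221 members were called (5.43%), against 6.60% of all main clusters of that type. The count was 9 of 213 (4.23%) at a mean level of at least 4, against 6.04% of all main clusters under the same setting. At 5 or more it was 5 of 176 (2.84%) against 4.94%, and at 6 or more 2 of 105 (1.90%) against 3.68%. With at least 16 probes it was 8 of 206 (3.88%) against 4.95%. At 2-fold it was 1 of 244, against 1.35%. Within 5 Mb of C3 it was 7 of 104 (6.73%), against 7.48%. Among protein-coding members, an alternative chosen after seeing the data, it was 5 of 171 (2.92%) against 5.66%. Apart from the 2-fold threshold, these settings test fewer clusters. The median difference was -0.03, and 0.016 with median centring and 0.013 at a mean level of at least 6. Median centring shifted all main clusters by 0.05, and split their calls into 1522 higher and 1012 lower in place of 1237 and 1292. The median size of the difference, 0.18, was 0.14 at 6 or more. The called share of the chromosome 17 reference, 8.24%, was 6.11% at a mean level of at least 5, 5.47% at 6 or more, 5.42% with at least 16 probes and 0.994% at 2-fold. Under the first 3 of these settings the segment's share was lower, at 2.84%, 1.90% and 3.88%. By distance, the share within 1 Mb became 0% at a mean level of 5 or 6 and at 2-fold, from 1 to 2 Mb 0% at 6 and at 2-fold, and from 2 to 5 Mb 0% at 5, at 6, with at least 16 probes and at 2-fold. From 5 to 10 Mb it became 4.76% at a mean level of at least 4, 4.71% with at least 16 probes and 1.01% at 2-fold. Beyond 10 Mb it was 0% throughout. The largest share within 1 Mb was 4.44%, or 2 of 45 with at least 16 probes, against 4.95% of all main clusters under that setting. Wherever the share within 1 Mb was above 0, it rested on 2 lower members. The C3 difference was -1.30 with median centring and -1.39 with loess centring. Why the values moved was not tested.

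With 1 array per genotype, mouse-to-mouse spread, sex and genotype cannot be told apart, and levels near background carry little information. Strain variants under probes were not examined here. No paired analysis was possible because each group has 1 array.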

Other observations

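Between the segment and the reference, chromosome 17 holds 549 other main clusters (from 30 to 46.5 Mb and from 70 to 75 Mb). Of these 40 were called (16 higher and 24 lower), their median difference was 0 and the median size of the difference 0.18. In steps of 5 Mb along the chromosome, the bin that holds C3 (from 55 to 60 Mb) had 5 of 86 clusters called besides C3 itself (5.81%), against 7.48% of all main clusters.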
